A study of Mus musculus with 46 samples.

Results

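The proteasome subunit genes described here are 32 genes of the constitutive proteasome. In the 20S core they are 7 genes of the alpha ring and 7 of the beta ring. In the 19S regulatory particle 10 were listed with the base, among them the assembly factor Psmd5, and 8 with the lid. They were taken by name, and each was read from the probe set that names that gene alone and has the highest mean over all arrays. They are 32 of 18193 genes read in this way, and all 32 were above the filter on low values on each of the 46 arrays, so that all are among the 13239 genes tested. The study followed the livers of male C57BL/6N mice, 8 to 10 weeks old, after a single intraperitoneal dose of carbon tetrachloride (CCl4) of 1.6 g per kg of body weight in olive oil. CCl4 is converted by cytochrome P450 enzymes of the hepatocytes around the central veins into a radical that kills those cells, and the liver then regenerates. RNA of whole liver was hybridised to Affymetrix mouse arrays, with 5 control arrays and 5 at each time after CCl4 (2 h, 8 h, 1 d and 2 d for the early course, then 4 d, 6 d and 8 d), except 16 d with 6. The controls are described as untreated, so the injection and the oil belong to every comparison with them. Groups were taken from the sample titles, because the treatment label reads CCl4 for the control arrays too. The labels do not say that each array is a separate animal, so the p values measure how far these arrays scatter, which could be technical scatter alone.

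The proteasome is the protease that degrades proteins tagged with ubiquitin in the cytosol and nucleus. Its 20S core is a barrel of stacked rings, in which outer alpha rings form the gate and inner beta rings carry the catalytic sites. The 19S base is a ring of ATPases that unfolds the substrate and opens the gate, and the lid holds the deubiquitinase that removes the ubiquitin chain. Transcription of the subunit genes is known to rise together when proteasome capacity is short, through the factor Nrf1, the product of Nfe2l1.

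Values are log2 expression values, in which a difference of 1 is a doubling. Pairs of arrays of the same group correlated at 0.947 to 0.993 over the genes tested, and the lowest value belonged to the 1 d group. Within that group arrays 1 and 2 stood apart from arrays 3 to 5 in the alpha ring genes, as described below, and results at 1 d are also given without them, an alternative chosen after seeing the data. Of 6 hepatocyte markers tested, Alb (albumin) differed from control by a log2 difference of -0.02 to 0.06 from 2 h to 4 d and was not called. At 1 d Alb was the exception, since the other markers tested were called lower. The summed linear level of the 6 was 79061 to 88838 at 1 d against 103937 to 108685 in control. Cyp2e1, the pericentral enzyme that activates CCl4, was lower by a log2 difference of -1.65 at 1 d and -2.26 at 2 d. The log2 difference between 3 prime and 5 prime probe sets of Gapdh, a measure of RNA integrity, was 0.347 ± 0.065 in control and averaged 0.136 to 0.199 from 2 h to 4 d (SD 0.035 to 0.134). With that difference as a covariate, also chosen after seeing the data, 27 subunit genes were called higher at 8 h and 28 at 1 d. In whole liver, fewer cells of a type and less RNA per cell cannot be told apart.

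Subunit genes of the core, base and lid rose together between 2 h and 8 h after CCl4, were still high at 1 d, and came back towards control by 4 d. At 8 h, 30 of 32 were called higher than control and 0 lower, by limma at an adjusted p under 0.05, where 17.7% of all genes tested were called higher and 24.2% lower. At 1 d, 31 were higher and 0 lower, against 25% and 25.1% of all genes. At 2 d, 12 were higher and 0 lower, against 21.1% and 18.9%. The unadjusted p was under 0.05 for 0 lower members at 8 h, 0 at 1 d and 1 at 2 d. Over the 32 genes the median log2 fold change rose from -0.03 at 2 h to 0.52 at 8 h, stood at 0.47 at 1 d and came down to 0.17 at 2 d, where all genes tested had medians of -0.03, -0.04, -0.04 and -0.03. The changes were moderate in size. At least a doubling was reached by 1 called member at 8 h, Psmd14 (2.03-fold), where 3.6% of all genes were called at least 2-fold higher, and by 2 at 1 d, Psmc5 (2.25-fold) and Psmd8 (2.21-fold), where 3.92% were. All arrays of the time lay above all control arrays for 27 members at 8 h (13.9% of all genes), 26 at 1 d (16.7%) and 11 at 2 d (15.7%). Over the 8 times, the highest mean fell at 8 h for 22 members, at 1 d for 9 and at 2 d for 1, Psmd13. An F-test over all times was passed by 32 of 32 members and by 83.4% of all genes.

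**Figure D1:**
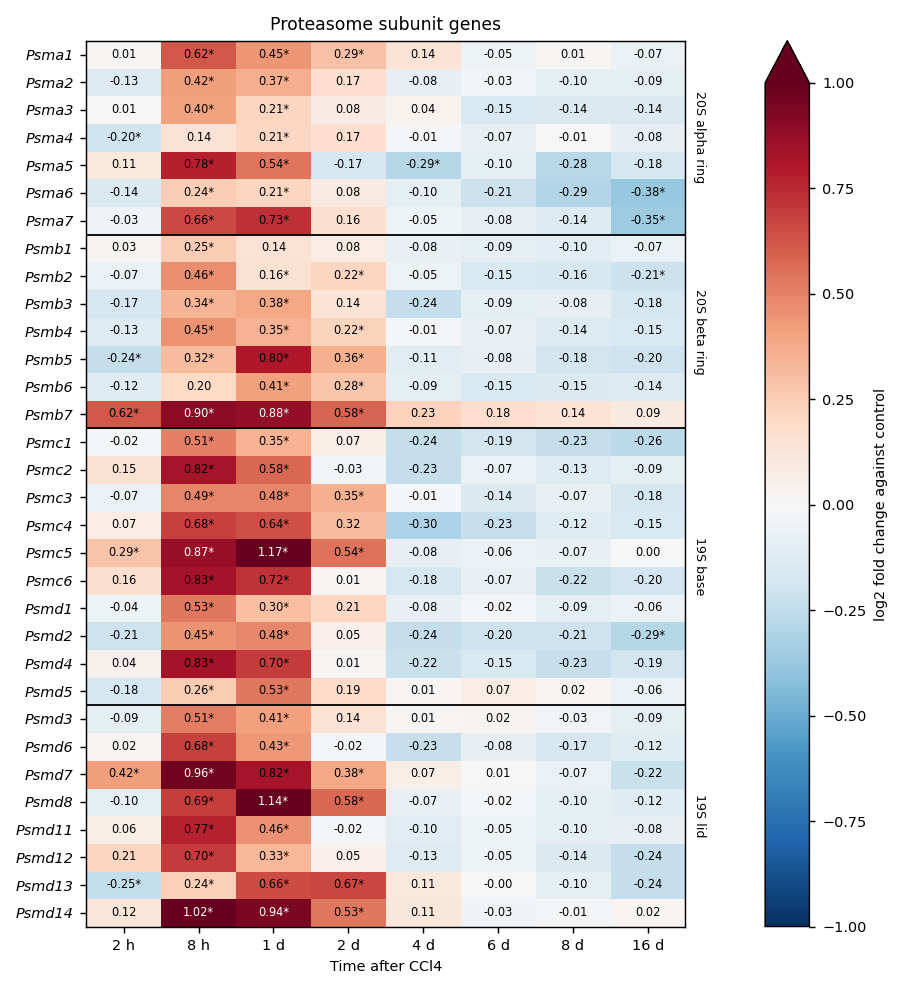
Log2 fold change against control (colour, cut at 1, and printed value) of the 32 subunit genes (rows, by subcomplex) at the 8 times after CCl4 (columns), with a star where the limma adjusted p is under 0.05. The columns of 8 h and 1 d hold 30 and 31 starred higher values, 2 d holds 12, and 6 d and 8 d hold 0.

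The subunit genes share no single motif in their promoters by the letters searched. Promoters were read from RefSeq on the build GRCm38.p6, from 250 bases before to 50 after the start, and 26 members with 28 promoters had an entry. No entry was held for Psmb1, Psmb2, Psmb7, Psmc3, Psmd3 and Psmd7. The antioxidant response element, the kind of element bound by Nrf1 and Nrf2, was searched on both strands as TGACNNNGC and was in 4 of the 28 (14.3%), against 12.4% of 32851 promoters in the table. The interferon-stimulated element, searched as GAAA, any 2 bases and GAAA again, was in 2 (7.14%) against 3.44%, and the gamma-activated site, searched as TTCNNNGAA, was in 1 (3.57%) against 8.30%. No match of one motif overlapped a match of another here. A match is a description of letters and not a site in use. The 4 stretches with the first element are printed, 5′ to 3′ along the gene with the match in capitals, because they belong to catalytic, ATPase and lid genes described next. They lie at chr14:54618008-54618067 on the minus strand (Psmb5), and on the plus strand at chr11:70525297-70525356 (Psmb6), chr14:45329574-45329633 (Psmc6) and chr11:107479278-107479337 (Psmd12).
Psmb5: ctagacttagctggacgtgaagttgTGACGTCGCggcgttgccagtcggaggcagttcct
Psmb6: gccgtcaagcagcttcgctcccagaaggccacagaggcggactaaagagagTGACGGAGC
Psmc6: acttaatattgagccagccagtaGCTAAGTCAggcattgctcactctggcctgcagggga
Psmd12: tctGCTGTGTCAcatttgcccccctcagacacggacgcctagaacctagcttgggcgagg
In Psmc6 and Psmd12 the match is on the opposite strand of the gene.

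The alpha ring forms the gate of the core, and 6 of its 7 genes were called higher at 8 h and 7 at 1 d. Their median log2 fold change was 0.42 at 8 h and 0.37 at 1 d, and the second value was 0.19 without arrays 1 and 2 of that time. Psma5, a structural alpha subunit, read 10.03, 10.19, 10.06, 10.11 and 10.08 in the control arrays, 10.91, 10.87, 10.90, 10.83 and 10.86 at 8 h and 10.81, 10.84, 10.61, 10.55 and 10.35 at 1 d. All 10 arrays of these times lay above the controls, and the 8 h arrays were close together while those at 1 d spread downwards. Psma5 changed by a log2 difference of 0.78 ± 0.08 at 8 h (SE, 5 arrays against 5, limma adjusted p = 9.98e-11) and 0.54 ± 0.08 at 1 d (adjusted p = 2.88e-07).

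Psma7, another structural alpha subunit, read 9.89, 9.80, 9.71, 10.04 and 9.98 in control, 10.41, 10.55, 10.59, 10.63 and 10.55 at 8 h and 10.64, 10.60, 10.84, 10.55 and 10.43 at 1 d. Both times lay wholly above control and overlapped each other. This was a log2 fold change of 0.66 ± 0.07 at 8 h and 0.73 ± 0.07 at 1 d (limma adjusted p = 9.21e-10 and 6.26e-11). Psma4, whose N-terminal tail is part of the gate, moved the least of this ring, with 10.67, 10.75, 10.73, 10.66 and 10.68 in control, 10.72, 10.97, 10.79, 10.96 and 10.77 at 8 h and 11.13, 11.06, 10.79, 10.72 and 10.82 at 1 d. At each time 1 array lay within the control range. The log2 fold change of Psma4 was 0.14 ± 0.07 at 8 h, which was not called (limma adjusted p = 0.113), and 0.21 ± 0.07 at 1 d (adjusted p = 0.018). Without arrays 1 and 2 at 1 d the value of Psma4 was 0.08 (adjusted p = 0.424), and the call was also lost without array 1 or array 2 alone (0.0986 and 0.0644). Psma6, read from a probe set of the _x_at kind that can take up related sequences, was 0.24 at 8 h and 0.21 at 1 d, and its call at 8 h was lost without array 3 of 8 h or control array 2, 3 or 4 (adjusted p from 0.0583 to 0.103). Its call at 1 d was lost without array 2 of 1 d or any of control arrays 1 to 4 (adjusted p from 0.0787 to 0.287).

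The beta ring holds the catalytic sites, and its 7 genes did not follow one course. At 8 h 6 were called higher, with a median of 0.34, and at 1 d 6 with a median of 0.38, which was 0.52 without arrays 1 and 2 of that time. Psmb7, which carries the trypsin-like site, read 8.43, 8.37, 8.60, 8.42 and 8.37 in control, 8.51, 9.46, 9.32, 8.92 and 9.08 at 2 h, 9.15, 9.57, 9.47, 9.01 and 9.48 at 8 h and 9.31, 9.05, 9.58, 9.34 and 9.32 at 1 d. Already at 2 h 4 of its 5 arrays were above the controls, and at 8 h and 1 d all were. Its log2 fold change was 0.62 ± 0.13, 0.90 ± 0.13 and 0.88 ± 0.13 at these times (limma adjusted p = 0.000542, 3.74e-07 and 5.14e-07). At 2 d Psmb7 read 9.36, 9.52, 8.84, 8.73 and 8.65, still above the controls, with 0.58 ± 0.13 (adjusted p = 0.000555).

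Psmb5, which carries the chymotrypsin-like site, read 10.11, 10.12, 10.20, 10.11 and 10.18 in control, 10.29, 10.46, 10.39, 10.66 and 10.50 at 8 h and 10.99, 10.72, 11.05, 11.02 and 10.95 at 1 d. The 1 d arrays lay above all arrays of 8 h, and these above the controls. The log2 fold change was 0.32 ± 0.08 at 8 h and 0.80 ± 0.08 at 1 d (limma adjusted p = 0.000742 and 2.15e-11), and the step from 8 h to 1 d was 0.48 ± 0.08 (adjusted p = 4.15e-06). Psmb6, with the caspase-like site, read 9.81, 9.90, 9.97, 9.93 and 9.90 in control, 9.99, 10.25, 9.96, 10.24 and 10.07 at 8 h and 10.15, 10.17, 10.44, 10.42 and 10.40 at 1 d. At 8 h 1 array fell within the control range and at 1 d none did. The value at 8 h, 0.20 ± 0.09, was not called (limma adjusted p = 0.0698; 0.0497 without array 1 at 8 h, 0.0459 without array 3), and that at 1 d was 0.41 ± 0.09 (adjusted p = 0.000172). Psmb1, a beta subunit without a catalytic site, read 10.14, 10.21, 10.29, 10.11 and 10.17 in control, 10.40, 10.54, 10.33, 10.49 and 10.43 at 8 h and 10.31, 10.28, 10.44, 10.35 and 10.26 at 1 d. It stood above control at 8 h (0.25 ± 0.07, limma adjusted p = 0.0016) and overlapped control at 1 d, where it was the 1 member not called (0.14 ± 0.07, adjusted p = 0.0703; 0.0433 without control array 3). The call of Psmb1 at 8 h was lost with the mean of all its probe sets (0.13, limma adjusted p = 0.0647). It was also lost with a plain _at probe set (0.08, limma adjusted p = 0.498), so the value at 8 h depends on the probe set read.

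The base unfolds the substrate. All 10 genes listed with it were called higher at 8 h, with a median of 0.61, and at 1 d, with a median of 0.55. Psmc5, one of the ATPases, read 8.58, 8.67, 8.67, 8.47 and 8.74 in control, 9.36, 9.56, 9.55, 9.48 and 9.57 at 8 h, 9.77, 9.90, 9.86, 9.78 and 9.67 at 1 d and 9.24, 9.36, 8.88, 9.07 and 9.28 at 2 d. Its arrays climbed without overlap from control to 8 h and to 1 d, and at 2 d were still all above control. Psmc5 rose by a log2 difference of 0.87 ± 0.09, 1.17 ± 0.09 and 0.54 ± 0.09 at 8 h, 1 d and 2 d (limma adjusted p = 1.56e-10, 7.17e-14 and 6.56e-06). Psmc6, another ATPase of the ring, read 9.41, 9.40, 9.37, 9.50 and 9.52 in control, 10.17, 10.26, 10.38, 10.29 and 10.25 at 8 h, 10.62, 10.06, 10.14, 10.00 and 10.00 at 1 d and 9.42, 9.32, 9.45, 9.52 and 9.57 at 2 d. It was high at 8 h and 1 d, with array 1 of 1 d far above the rest, and within and around the control range at 2 d. Against control Psmc6 changed by 0.83 ± 0.08 at 8 h, 0.72 ± 0.08 at 1 d and 0.01 ± 0.08 at 2 d (limma adjusted p = 7e-11, 1.37e-09 and 0.919). A dimmer probe set of Psmc6 gave -0.03 at 1 d (adjusted p = 0.916) and 0.60 at 8 h (adjusted p = 0.0169), so the value at 1 d depends on the probe set read.

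Psmd2, a scaffold of the base that docks ubiquitin shuttle proteins, had the smallest peak of the base, with 9.51, 9.65, 9.62, 9.68 and 9.64 in control, 9.93, 10.13, 10.05, 10.12 and 10.12 at 8 h and 10.11, 10.07, 10.21, 10.08 and 10.01 at 1 d. Neither time overlapped control. Psmd2 rose by a log2 difference of 0.45 ± 0.08 and 0.48 ± 0.08 (limma adjusted p = 1.58e-05 and 5.36e-06). The ubiquitin receptor Psmd4 rose by 0.83 at 8 h and 0.70 at 1 d, and the other ATPases Psmc1, Psmc2, Psmc3 and Psmc4 by 0.49 to 0.82 at 8 h and by 0.35 to 0.64 at 1 d. Psmd1, a scaffold of the base, was 0.53 at 8 h and 0.30 at 1 d, and the latter was 0.22 without array 1 of 1 d (adjusted p = 0.0548) and 0.12 without arrays 1 and 2 (0.323). Psmd5, a factor that helps to assemble the base, was 0.26 at 8 h and 0.53 at 1 d, and its call at 8 h was lost without array 1 or array 2 of 8 h, or control array 1 (adjusted p = 0.0629, 0.121 and 0.0588).

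The lid releases ubiquitin from the substrate. All 8 genes listed with it were called higher at 8 h, with a median of 0.69, and at 1 d, with a median of 0.56. Sem1, a further lid gene outside this list, was -0.04 ± 0.05 at 8 h and 0.18 ± 0.05 at 1 d (limma adjusted p = 0.641 and 0.00505). Psmd14, the deubiquitinase of the lid, read 9.05, 9.18, 9.40, 9.12 and 9.05 in control, 10.14, 10.21, 10.10, 10.24 and 10.24 at 8 h, 10.59, 10.13, 10.07, 9.93 and 9.82 at 1 d and 9.55, 9.57, 9.61, 9.79 and 9.93 at 2 d. All arrays of the 3 times lay above the controls. On the log2 scale Psmd14 rose by 1.02 ± 0.10, 0.94 ± 0.10 and 0.53 ± 0.10 (limma adjusted p = 4.79e-11, 2.38e-10 and 5.02e-05). Psmd8, a lid subunit that joins late in lid assembly, read 9.81, 9.85, 10.00, 9.93 and 9.91 in control, 10.31, 10.48, 10.75, 10.68 and 10.72 at 8 h, 11.17, 10.61, 11.21, 11.06 and 11.14 at 1 d and 10.43, 10.55, 10.35, 10.49 and 10.56 at 2 d. At 1 d 4 arrays were above all arrays of 8 h, while array 2 lay among them. Psmd8 rose by a log2 difference of 0.69 ± 0.08 at 8 h, 1.14 ± 0.08 at 1 d and 0.58 ± 0.08 at 2 d (limma adjusted p = 4.37e-09, 1.15e-14 and 3.47e-07).

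Psmd3, a structural lid subunit with the smallest peak of the lid, read 8.30, 8.13, 8.14, 8.06 and 8.11 in control, 8.62, 8.59, 8.64, 8.74 and 8.68 at 8 h and 8.66, 8.69, 8.52, 8.41 and 8.49 at 1 d. Both times lay above control. Against control it was higher by a log2 difference of 0.51 ± 0.07 and 0.41 ± 0.07 (limma adjusted p = 4.58e-08 and 2.93e-06). Psmd7, the partner of the deubiquitinase, was 0.96 ± 0.15 at 8 h and 0.82 ± 0.15 at 1 d. Psmd13 ran late, with 0.24 ± 0.07 at 8 h, 0.66 ± 0.07 at 1 d and 0.67 ± 0.07 at 2 d (limma adjusted p = 0.00583, 5.27e-10 and 6.16e-10). Probe sets of Psmd13 went opposite ways: another probe set passing the filter was called lower at these 3 times, by -0.80, -0.82 and -0.69. Psmd11, read from a probe set of the _s_at kind, was 0.77 at 8 h and 0.46 at 1 d, and a dimmer probe set of it was called lower at 1 d (-0.20). With a plain _at probe set Psmd11 was 0.21 at 8 h and 0.11 at 1 d, and both calls were lost (limma adjusted p = 0.139 and 0.453). Psmd12 was 0.70 at 8 h and 0.33 at 1 d, and without arrays 1 and 2 of 1 d the latter was 0.10 (adjusted p = 0.310). Of the 32 members 14 had at least 2 probe sets passing the filter, and Psmd13 and Psmd11 were those with calls in opposite directions.

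**Figure D2:**
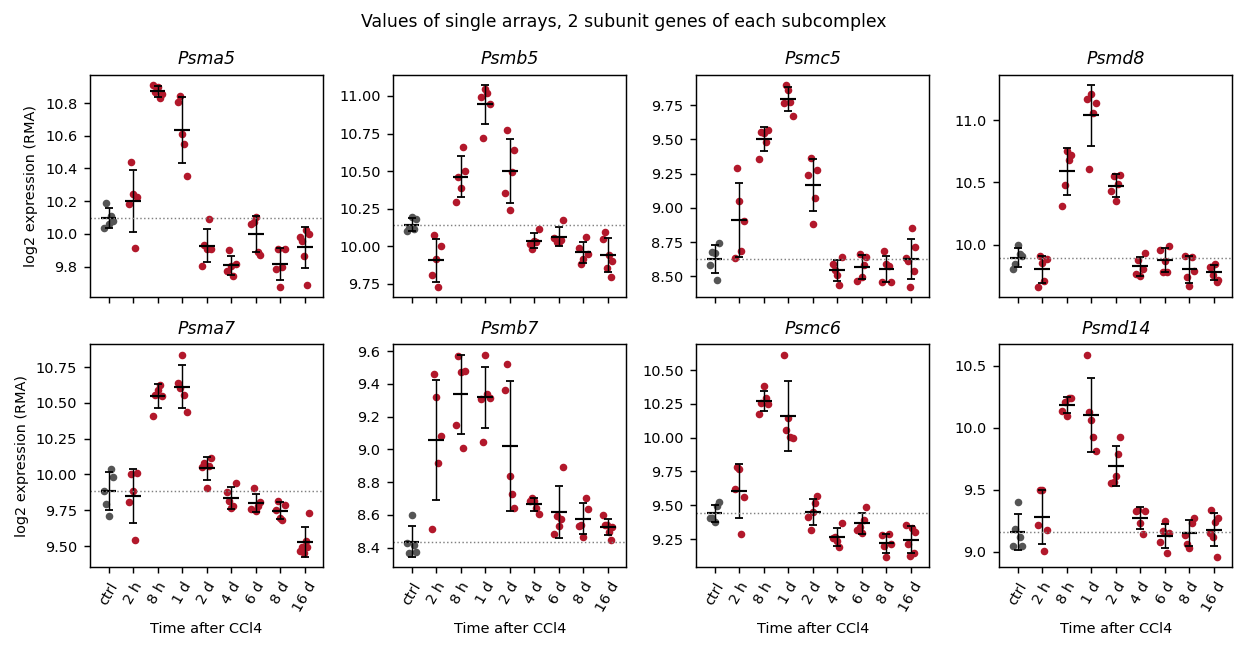
Log2 expression (RMA) of single arrays (points) for 2 genes of each subcomplex in control (grey) and at the 8 times after CCl4 (red), with the group mean (line), its SD (bar) and the control mean (dotted). Psmd14 sits between 10.10 and 10.24 at 8 h against 9.05 to 9.40 in control, and Psmc5 is highest at 1 d, between 9.67 and 9.90.

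Set side by side, the genes of the regulatory particle had larger median changes at 8 h than those of the core, in each of the 5 arrays. The median of log2 value minus control mean at 8 h was 0.35 to 0.50 over the arrays for the alpha ring, 0.21 to 0.53 for the beta ring, 0.38 to 0.74 for the base and 0.51 to 0.85 for the lid. In every array of 8 h the lid was above the base, and the base above both rings. At 1 d that order was not kept. Arrays 1 and 2 had 0.71 and 0.60 in the alpha ring against 0.25 and 0.27 in the beta ring, and arrays 3, 4 and 5 had 0.23, 0.20 and 0.12 in the alpha ring against 0.54, 0.52 and 0.43 in the beta ring. The base ranged from 0.40 to 0.74 and the lid from 0.45 to 0.87 at that time. At 2 d the medians of the fold changes were 0.16, 0.22, 0.13 and 0.26 in the alpha ring, beta ring, base and lid. These differences between subcomplexes are a description and were not tested, since the genes of a subcomplex are not replicates.

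**Figure D3:**
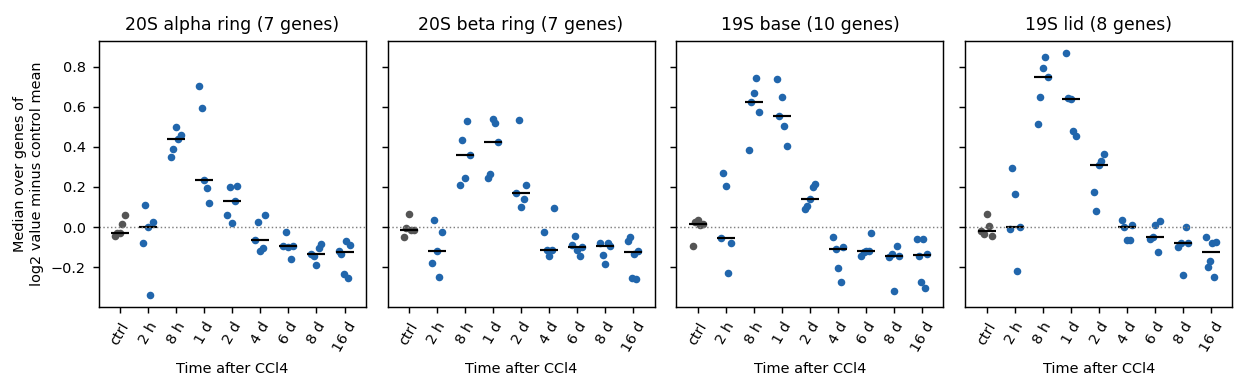
Median over the genes of each subcomplex of log2 value minus control mean, for every array (points; grey for control, blue for the 8 times after CCl4), with the median over arrays (line). At 8 h the lid reaches 0.51 to 0.85 and the alpha ring 0.35 to 0.50, and at 1 d the alpha ring splits into 2 arrays at 0.60 and 0.71 and 3 between 0.12 and 0.23.

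The rise was not yet seen at 2 h. At that time 3 members were called higher and 3 lower, against 6.41% and 19.9% of all genes. The higher ones were Psmb7, given above, Psmd7 (0.42 ± 0.15, limma adjusted p = 0.0284) and Psmc5 (0.29 ± 0.09, adjusted p = 0.0163). The lower ones were Psma4 (-0.20 ± 0.07, adjusted p = 0.0415), Psmb5 (-0.24 ± 0.08, adjusted p = 0.0205) and Psmd13 (-0.25 ± 0.07, adjusted p = 0.00926). Psmb5 read 9.81, 10.08, 9.91, 9.73 and 10.00 at 2 h, all below the controls. Psmd13 read 7.14, 7.48, 7.22, 7.13 and 7.52 at 2 h and 7.67, 7.53, 7.50, 7.54 and 7.48 in control, with overlap. The split depended on scaling: 13 were higher and 0 lower after cyclic loess, and 7 higher and 1 lower after quantile normalization. The share of all genes called was not counted under these scalings, so whether other genes shifted in the same way is not shown. It depended on single arrays as well. Array 4 of 2 h was the lowest of its group in 28 members and array 2 the highest in 24. Without array 4 the counts were 5 higher and 1 lower, without array 2 or array 3 of 2 h 1 was higher, and without array 1 of 2 h 1 was lower. The call of Psma4 was lost without array 1, 3 or 4 of 2 h or any control array (limma adjusted p from 0.0526 to 0.206). That of Psmb5 was lost without array 1 or 4 of 2 h. Psmc5 lost its call without array 2 or 3 of 2 h or control array 4, and Psmd7 without array 2 or 3 of 2 h or control array 2 or 5. With the Gapdh covariate 1 was higher.

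The step from 2 h to 8 h carried most of the rise. Between these times 31 members were called higher and 0 lower (20.4% and 15.4% of all genes), with a median of 0.57 and 0 lower at an unadjusted p under 0.05. The 1 not called, Psmb7, had moved by 2 h. From 8 h to 1 d few members moved further, with counts not far from those of all genes: 5 were called higher, Psmb5, Psmc5, Psmd5, Psmd8 and Psmd13 (20.8% of all genes), and 6 lower, Psma3, Psma5, Psmb2, Psmd6, Psmd11 and Psmd12 (10.9%). The largest further rises were those of Psmb5 (0.48), Psmd8 (0.45 ± 0.08, limma adjusted p = 3.21e-05) and Psmd13 (0.41 ± 0.07, adjusted p = 1.46e-05), and the largest falls those of Psmd12 (-0.36 ± 0.09, adjusted p = 0.00254), Psmd11 (-0.31 ± 0.10, adjusted p = 0.00998) and Psmb2 (-0.31 ± 0.06, adjusted p = 6.87e-05). The count of lower members was 10 without array 1 of 1 d, 3 without array 5 of 1 d, 13 without arrays 1 and 2 of 1 d, 13 after quantile normalization and 20 after cyclic loess, where 4 and 3 were higher in the last 2 settings.

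The return came in 2 steps of similar extent. From 1 d to 2 d 17 members were called lower and 0 higher (15% and 17.4% of all genes; 0 higher at an unadjusted p under 0.05), of which 14 belonged to the base and lid and 3 to the core. From 2 d to 4 d 19 were lower and 0 higher (17.9% and 13.4%, and 0 higher unadjusted), of which 9 belonged to the core. Leaving out 1 array of either time gave 16 to 21 lower members in the first step. In the second it gave 13 to 18, all under the count of the main fit. Psmc6 fell by 0.71 and Psma5 by 0.70 in the first step (SE 0.08 each, limma adjusted p = 6.48e-09 and 2.44e-09), and Psmd8 fell by 0.65 in the second. Psma5 then stood below control at 4 d, with 9.77, 9.90, 9.80, 9.74 and 9.82 against 10.03 to 10.19, without overlap. Its log2 fold change of -0.29 ± 0.08 (adjusted p = 0.0159) was the 1 call of a member at 4 d, where 4.74% of all genes were higher and 2.21% lower. That call was lost without control array 2 (adjusted p = 0.0502). Without array 1 of 4 d or without control array 1 there were 2 lower members at 4 d. The step from 4 d to 6 d held 1 lower member, Psma3, and 0 higher (7.3% and 3.51% of all genes; 1 higher at an unadjusted p under 0.05), and the lower count was 0 in each of 6 alternatives that left out 1 array of either time: arrays 1 and 5 of 4 d and arrays 1, 3, 4 and 5 of 6 d. The steps from 6 d to 8 d and from 8 d to 16 d held 0 called members by limma (at most 0.00755% of all genes in either direction; 1 lower member each at an unadjusted p under 0.05). At an unadjusted p under 0.05, 9 members were lower and 0 higher at 4 d, against 8.71% and 10.1% of all genes.

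At 6 d and 8 d 0 members were called in either direction by limma. All genes had 0.0227% higher and 0% lower at 6 d, and 0.068% higher and 0.0755% lower at 8 d. At an unadjusted p under 0.05, 5 members were lower at 6 d and 9 at 8 d, against 4.26% and 6% of all genes, and 0 were higher at both, against 2.64% and 3.96%. The median over members was -0.07 and -0.11, with all genes at -0.00 and -0.01. At 16 d 4 members were called lower, Psma6 (-0.38 ± 0.09, limma adjusted p = 0.019), Psma7 (-0.35 ± 0.07, adjusted p = 0.0106), Psmd2 (-0.29 ± 0.08, adjusted p = 0.0494) and Psmb2 (-0.21 ± 0.06, adjusted p = 0.0433), and 0 higher, where 1.1% of all genes were lower and 0.415% higher. At an unadjusted p under 0.05 there were 14 lower and 0 higher members, against 11.8% and 6.39% of all genes. Psma7 read 9.45 at the lowest, 9.49 at the median and 9.73 at the highest of the 6 arrays, and overlapped the control array at 9.71. The calls at 16 d were not stable to leaving out 1 array: 0 remained without control array 5, 1 without array 5 of 16 d, and 2 without control array 2, 3 or 4 or array 3, 4 or 6 of 16 d. The count was 1 after quantile normalization or cyclic loess and 2 with a block for the replicate number.

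At 8 h the 3 inducible catalytic subunits were called lower, while Psmb5 and Psmb7 of the constitutive ones that they replace were called higher. Of all genes tested, 24.2% were called lower and 17.7% higher at that time. At other times some pairs moved the same way. Psmb8 and Psmb5 were both called lower at 2 h (19.9% of all genes). At 2 d Psmb8 and Psmb5 as well as Psmb9 and Psmb6 were called higher (21.1% of all genes). Psmb8, Psmb9 and Psmb10 are induced by interferon, take the places of Psmb5, Psmb6 and Psmb7 in the immunoproteasome, and are abundant in leukocytes. Psmb8 read 7.71, 7.86, 8.01, 7.73 and 7.62 in control, 7.31, 7.49, 7.21, 7.18 and 7.62 at 2 h, 7.17, 7.52, 7.30, 7.11 and 7.24 at 8 h, 7.81, 7.91, 7.17, 7.58 and 7.71 at 1 d and 8.60, 8.55, 8.39, 8.47 and 8.58 at 2 d. It was below control at 8 h, among the controls at 1 d except for array 3 and array 4, and above them at 2 d. Fold changes on the log2 scale were -0.42 ± 0.11 at 2 h, -0.52 ± 0.11 at 8 h, -0.15 ± 0.11 at 1 d and 0.73 ± 0.11 at 2 d for Psmb8 (limma adjusted p = 0.00337, 0.000124, 0.257 and 8.23e-07).

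Psmb9 read 7.58, 7.99, 8.11, 7.50 and 7.53 in control, 6.87, 7.31, 6.80, 6.45 and 6.67 at 8 h, 7.24, 7.56, 6.15, 6.59 and 6.79 at 1 d and 8.37, 8.24, 7.88, 8.13 and 8.40 at 2 d. It was below control at 8 h without overlap, overlapped control in array 2 at 1 d, and had 4 of 5 arrays above all controls at 2 d. For Psmb9 the log2 fold change was -0.46 ± 0.17 at 2 h, -0.92 ± 0.17 at 8 h, -0.87 ± 0.17 at 1 d and 0.46 ± 0.17 at 2 d (limma adjusted p = 0.0402, 1.55e-05, 3.32e-05 and 0.0267). Psmb10 read 8.67, 8.66, 8.65, 8.66 and 8.85 in control, 7.89, 8.31, 8.00, 7.98 and 8.41 at 2 h, 7.89, 8.38, 7.66, 7.80 and 7.61 at 8 h and 8.42, 8.75, 8.37, 8.39 and 8.39 at 1 d. It lay wholly below control at 2 h and 8 h, and array 2 of 1 d reached the control range. Its log2 fold change was -0.58 ± 0.12, -0.83 ± 0.12 and -0.24 ± 0.12 (limma adjusted p = 0.000462, 3.5e-07 and 0.107). A stretch of the Psmb8 promoter with the gamma-activated site in capitals, at chr17:34198073-34198132 on the plus strand of GRCm38.p6, is shown as the 1 match of this site among 6 promoters of the immunosubunits and PA28 genes. The other 5 do not hold these letters in this window, and 8.30% of all promoters do. Of the same 6 promoters, the interferon-stimulated element was in 1, that of Psme1, against 3.44% of all promoters. The antioxidant response element was in 0, against 12.4%.
Psmb8: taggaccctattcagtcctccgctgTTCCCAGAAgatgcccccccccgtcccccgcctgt

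The difference between each pair was tested within arrays, as the log2 value of the inducible gene minus that of the constitutive one, by two-sided exact permutation over arrays with Benjamini-Hochberg adjustment over 24 tests. The smallest p that 5 arrays against 5 can give is 0.00794. Against control the Psmb8 minus Psmb5 difference changed by -0.84 at 8 h and -0.95 at 1 d, Psmb9 minus Psmb6 by -1.12 and -1.29, and Psmb10 minus Psmb7 by -1.73 and -1.12, with all 5 arrays below all controls in each of these 6 comparisons (exact permutation, adjusted p = 0.019). Psmb10 minus Psmb7 had changed by -1.20 at 2 h already (5 of 5 arrays below, exact permutation, adjusted p = 0.019). Without control array 2 the Psmb9 minus Psmb6 change at 1 d had an adjusted p of 0.0519 (exact permutation).

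Later the pairs differed. Psmb8 minus Psmb5 was above control by 0.37 at 2 d (4 of 5 arrays above, exact permutation, adjusted p = 0.0346) and by 0.43 at 4 d (5 of 5, adjusted p = 0.019, exact). The value at 2 d was -0.03 with the mean of all probe sets of a gene (exact permutation, adjusted p = 0.881) and 0.26 after quantile normalization (adjusted p = 0.0762, exact), and its call was lost without array 1 of 2 d or without control array 1, 2, 4 or 5. For Psmb8 that mean was over 2 probe sets, of which only 1 passed the filter on low values. Psmb9 minus Psmb6 was above control by 0.51 at 4 d (5 of 5 arrays, exact permutation, adjusted p = 0.019), with 0.0733 without array 2 or array 3 of 4 d. Psmb10 minus Psmb7 was below control by -0.27 at 4 d and -0.52 at 6 d (3 of 5 arrays each, exact permutation, adjusted p = 0.044) and by -0.37 at 16 d (6 of 6 arrays, exact permutation, adjusted p = 0.019). Its changes of -0.39 at 2 d, with 1 array above all controls, and -0.29 at 8 d did not pass (exact permutation, adjusted p = 0.157 and 0.119). The calls at 4 d and 6 d were each lost in several fits that left out 1 array: control array 1, 2, 4 or 5 for both, array 1, 2 or 3 of 4 d, and array 5 of 6 d.

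**Figure D4:**
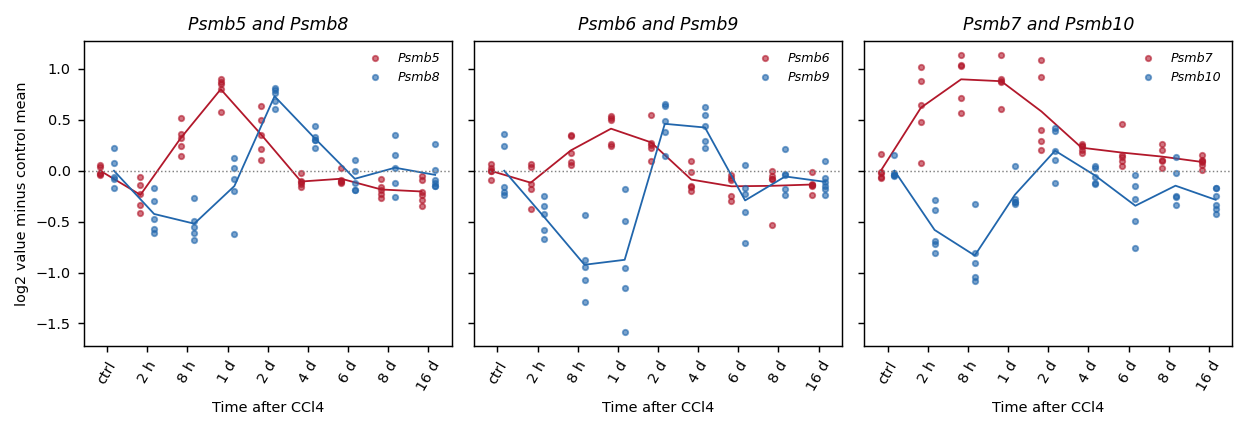
Log2 value minus control mean of every array (points) and the group means (lines) for the constitutive catalytic genes (red) and the inducible ones that replace them (blue), in control and at the 8 times after CCl4. At 8 h the means are 0.32 for Psmb5 and -0.52 for Psmb8, 0.20 for Psmb6 and -0.92 for Psmb9, and 0.90 for Psmb7 and -0.83 for Psmb10.

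Markers of leukocytes and the inducible subunits moved the same way at some times and not at others. Some markers were lower at 2 h and 4 of 7 at 8 h, where Psmb8, Psmb9 and Psmb10 were lower too. At 2 d 4 were higher, where Psmb8 and Psmb9 were called higher. At 1 d 4 were higher, where Psmb9 was called lower. At 4 d 5 were higher, where Psmb8 (0.32), Psmb9 (0.43) and Psmb10 (-0.05) were not called (limma adjusted p = 0.0682, 0.133 and 0.898). Of 7 leukocyte and macrophage markers tested 2 were called lower at 2 h (19.9% of all genes), 4 lower and 1 higher (Cd14) at 8 h (24.2% and 17.7%), and 4 higher at 1 d (25%), 4 at 2 d (21.1%) and 5 at 4 d (4.74%), with 0 lower at these last 3 times. Their summed linear level ranged from 1982 to 2174 in control, 1444 to 1794 at 2 h, 1655 to 2137 at 8 h, 2869 to 3884 at 1 d, 2292 to 6737 at 2 d and 4649 to 6177 at 4 d. Of 5 Kupffer cell markers 2 were lower at 2 h (19.9% of all genes) and 4 lower at 8 h (24.2%). At 1 d 1 was higher and 1 lower (25% and 25.1%), and 3 were higher at 2 d (21.1%) and at 4 d (4.74%). Their part in the result was not tested. For the constitutive subunits, the 4 markers of proliferating cells tested were called higher at 2 d and 4 d (21.1% and 4.74% of all genes). At 8 h and 1 d 0 of them were higher (17.7% and 25%). Of 6 hepatocyte markers 5 were lower at 1 d (25.1%), with a summed level of 79061 to 88838 against 103937 to 108685 in control. Their part in the subunit changes was not tested.

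Genes of other regulatory particles moved in both directions. Psme1, which encodes a subunit of the interferon-induced PA28 activator, read 9.16, 9.37, 9.12, 9.32 and 9.27 in control, 8.61, 8.77, 8.46, 8.71 and 8.47 at 8 h and 9.84, 9.81, 9.54, 9.43 and 9.46 at 2 d, below control at 8 h and above it at 2 d. Its log2 fold change was -0.64 ± 0.09 at 8 h and 0.37 ± 0.09 at 2 d (limma adjusted p = 1.07e-07 and 0.00111). Psme3, the subunit of the nuclear PA28 activator, read 6.40, 6.62, 6.53, 6.66 and 6.61 in control and 7.34, 7.31, 7.53, 7.29 and 7.29 at 1 d, without overlap, a log2 fold change of 0.79 ± 0.08 (limma adjusted p = 2.08e-10). Of the 5 genes of this list tested, 3 were higher and 1 lower at 8 h (17.7% and 24.2% of all genes). At 1 d 2 were higher and 2 lower (25% and 25.1%).

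Of 7 assembly chaperones tested 5 were called lower at 2 h and 0 higher, where 19.9% of all genes were lower, and Psmg3 and Psmd9 did not pass (-0.17 and -0.07). Psmg2, part of a chaperone pair of the alpha ring, was lower by -0.55 ± 0.13 at 2 h (limma adjusted p = 0.00122). At 8 h 2 were higher and 2 lower (17.7% and 24.2% of all genes). Psmg1, the partner of Psmg2, was lower by -0.57 ± 0.07 at that time (limma adjusted p = 1.2e-08). At 1 d 3 chaperones were higher and 0 lower (25% and 25.1%), and at 2 d 4 were higher and 0 lower (21.1% and 18.9%).

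Genes that bring substrates to the proteasome rose with the subunits. Of 7 shuttle factors and p97 cofactors tested all 7 were called higher at 8 h and at 1 d (17.7% and 25% of all genes). Their medians were 0.63 and 0.79. Sqstm1, the p62 receptor of ubiquitin for autophagy and a known Nrf2 target, read 9.96, 10.07, 9.80, 9.98 and 9.96 in control, 10.87, 11.09, 12.07, 10.52 and 10.41 at 2 h, 12.51, 12.52, 12.66, 12.66 and 12.80 at 8 h and 12.12, 11.03, 12.04, 11.84 and 11.68 at 1 d. All arrays of these times were above control. Sqstm1 rose by a log2 difference of 1.04 ± 0.18, 2.67 ± 0.18 and 1.79 ± 0.18 (limma adjusted p = 5.19e-05, 6.67e-15 and 1.11e-10), larger than that of any subunit gene. Ubqln4, a ubiquilin that carries ubiquitinated proteins, read 6.68, 6.74, 6.65, 6.91 and 6.81 in control and 7.92, 7.28, 8.20, 8.04 and 8.11 at 1 d, without overlap, a log2 fold change of 1.15 ± 0.11 (limma adjusted p = 1.61e-11).

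Of 4 genes that control proteasome gene expression 2 were called higher at 8 h and at 1 d (17.7% and 25% of all genes). Nfe2l1, which encodes Nrf1 and was singled out after its values were seen, was -0.27 ± 0.07 at 2 h and 0.22 ± 0.07 at 8 h and at 1 d (limma adjusted p = 0.00253, 0.00683 and 0.00572). Vcp, the p97 ATPase that releases Nrf1 from the endoplasmic reticulum, was 0.58 ± 0.08 at 8 h and 0.33 ± 0.08 at 1 d (adjusted p = 8.54e-08 and 0.000586). Nfe2l2, which encodes Nrf2, was -0.31 ± 0.14 at 8 h (adjusted p = 0.075) and 0.71 ± 0.14 at 2 d (adjusted p = 8.03e-05). Ngly1, also of this list, was -0.12 ± 0.09 at 8 h and at 1 d, which was not called (limma adjusted p = 0.307 and 0.287). At 2 d Ngly1 was called lower, with -0.31 ± 0.09 (limma adjusted p = 0.00599). A further list held the proteasome-bound deubiquitinases Usp14 and Uchl5 and the lid gene Sem1. Of these 3 genes 1 was higher at 8 h, 3 at 1 d and 2 at 2 d (17.7%, 25% and 21.1% of all genes). Uchl5 was 0.75 ± 0.09 at 2 d (limma adjusted p = 7.86e-09) and Usp14 was 0.38 ± 0.09 at 8 h (adjusted p = 0.000319). The ubiquitin-activating enzyme Uba6 was 0.39 ± 0.13 at 8 h and 0.67 ± 0.13 at 1 d (adjusted p = 0.0135 and 4.45e-05). Psme2, Paaf1, Adrm1 and Ddi2 had no probe set naming them alone, Psma8 did not pass the filter, and these genes are not analysed here.

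**Figure D5:**
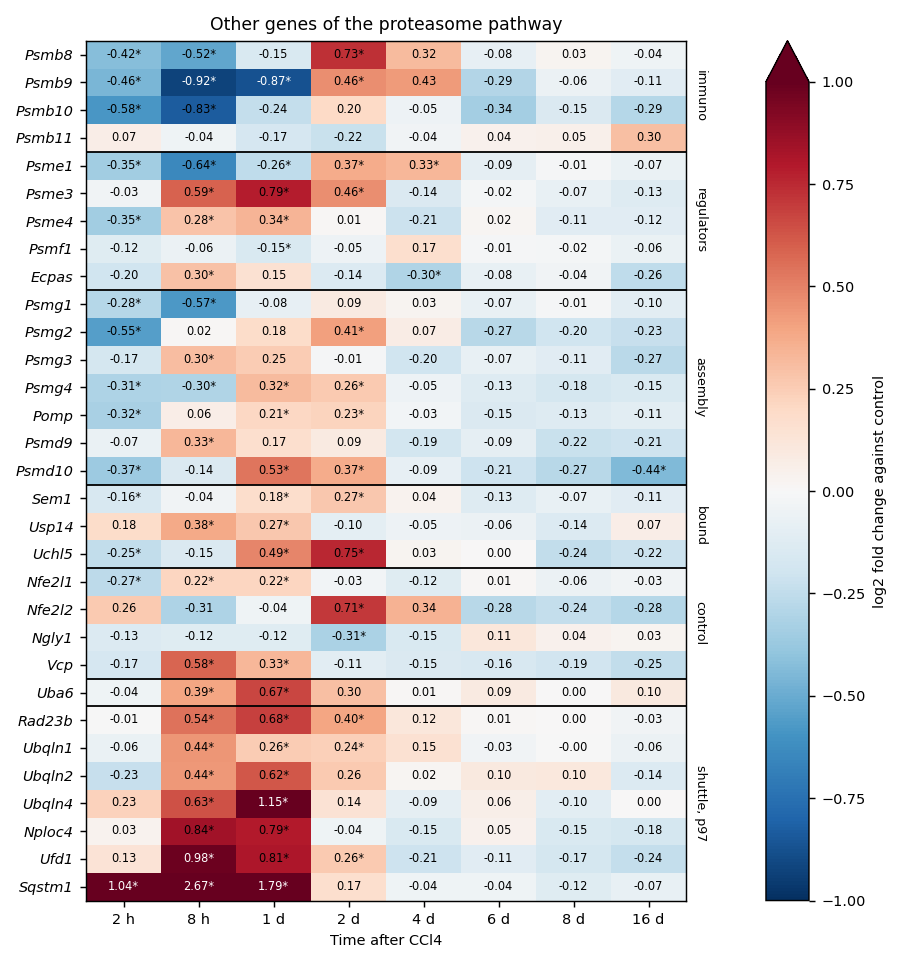
Log2 fold change against control (colour, cut at 1, and printed value) of other genes of the proteasome pathway (rows, by list) at the 8 times after CCl4 (columns), with a star where the limma adjusted p is under 0.05. The shuttle and p97 list is higher at 8 h and 1 d in all 7 rows, up to 2.67 for Sqstm1, while Psmb8, Psmb9, Psmb10 and Psme1 are lower at 8 h.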

How the data were processed

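The authors deposited log2 expression values of 45101 probe sets on 46 arrays in 9 groups, and the submitters' processing notes name the tools oligo (version 1.52.0) and RMA. Normalization between arrays, which is part of RMA, removes a shift common to most genes. Of the probe sets 34945 named 1 gene. Genes were tested where the chosen probe set was over the median of the whole table in 5 or more arrays.

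All arrays entered 1 limma fit of the group means (limma 3.58.1, R 4.3.3, lmFit and eBayes, 37 residual degrees of freedom), with Benjamini-Hochberg adjustment over all genes within a contrast. The median SE of a comparison of 5 arrays against 5 was 0.0839 for the members and 0.0966 for all genes, and the number of arrays limits the precision. The fit was tested on simulated data. Array values in control and at the times a result turns on are given for the 2 largest and the smallest peak of each subcomplex and for the catalytic genes and their paralogs, and the 2 largest called genes of each related list are named. Members, lists and this rule were chosen with earlier results of these data known. Same-numbered arrays of different groups did not deviate together (median correlation 0.00932 over 180 pairs), so arrays were not paired. Other scalings, filters, probe set rules, variance models and leaving out each array were the alternatives. Tables and plots were made with Python 3.11.15, pandas 2.3.3, scipy 1.17.1 and matplotlib 3.10.9.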

Additional observations from a re-analysis of the deposited data

Results flagged for a closer look

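In 144 groups of 5 or 6 arrays (16 genes whose arrays are given, in 9 groups each), 11 held an array far from the rest by Dixon's criterion, which chance passes in about 1 of 20 groups. At 1 d array 1 of Psmc6 read 10.62 with the next at 10.14, array 2 of Psmd8 read 10.61 with the next at 11.06, and array 2 of Psmb10 read 8.75 with the next at 8.42. In control, array 3 of Psmb7 read 8.60 with the next at 8.43 and array 5 of Psmb10 read 8.85 with the next at 8.67. At 6 d array 5 read 8.89 for Psmb7 and 10.17 for Psmb5, with the next at 8.60 and 10.05, and array 4 read 8.01 for Psmd3 with the next at 8.18. At 8 d array 3 was low for both Psmd3 (7.90, next 8.13) and Psmb6 (9.37, next 9.82), and it was the lowest of its group in 21 of the 32 members. At 16 d array 6 of Psma7 read 9.73 with the next at 9.54.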

How the results depend on the processing

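Counts below are of subunit genes called lower unless said to be higher, and medians are of log2 fold changes against control. The share of all genes called was counted for the main fit alone, so no count under an alternative has one beside it. The counts of higher genes at 8 h and 1 d stayed between 25 and 32 under every alternative run, while 2 h, 16 d and the step from 8 h to 1 d moved, and the cause was not tested. Quantile normalization gave 7 higher and 1 lower at 2 h, 1 at 2 d, 6 at 4 d, 1 at 16 d, 13 from 8 h to 1 d, and 1 higher and 0 lower from 4 d to 6 d. Its medians were 0.0067 (base) and 0.13 (lid) at 2 d, -0.039 (beta) and -0.058 (base) at 6 d, and -0.046 (alpha), -0.049 (beta), -0.048 (base) and -0.013 (lid) at 16 d. Its paralog changes were -0.26 for Psmb8 minus Psmb5 at 2 h (exact permutation, adjusted p = 0.0408) and 0.26 at 2 d (0.0762), and -0.40 for Psmb9 minus Psmb6 at 2 h (0.0346). Cyclic loess gave 13 higher and 0 lower at 2 h, 1 at 2 d, 3 at 4 d, 1 at 16 d, 3 higher and 20 lower from 8 h to 1 d, 12 from 2 d to 4 d, and 1 higher and 0 lower from 4 d to 6 d. Its medians were 0.16 (alpha) and 0.074 (beta), both reversed, and 0.24 (lid) at 2 h, 0.55 (alpha) at 8 h, 0.065 (alpha) and 0.056 (base) at 2 d, -0.050 (beta) at 6 d, and -0.039 (alpha), -0.048 (beta) and -0.019 (lid) at 16 d, and Psma4 at 2 h turned to 0.0034. A shift of each array to the same median gave 3 from 8 h to 1 d, and no filter gave 2 at 16 d.

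The mean of all probe sets of a gene took in those that did not pass the filter. It gave 5 higher at 2 h, 1 at 2 d, 2 at 16 d, 10 from 8 h to 1 d and 0 from 4 d to 6 d, with medians of 0.41 (base) and 0.37 (lid) at 1 d, 0.10 (lid) at 2 d, -0.11 (base) at 4 d, -0.060 (base) at 6 d and -0.095 (alpha) at 8 d. It reversed Psmd13 at 8 h (-0.067) and Psmb8 minus Psmb5 at 2 d (-0.035, exact permutation, adjusted p = 0.881). Plain _at probe sets gave 1 at 2 d, 0 at 4 d, 1 at 16 d and 0 from 4 d to 6 d, medians of 0.12 (lid) at 2 d and -0.054 (alpha) at 8 d, and reversed Psmd13 at 2 h (0.053) and 2 d (-0.25) and Psmc6 at 1 d (-0.030). A fit of the compared groups alone gave 1 at 2 h, 1 higher and 4 lower at 4 d, 1 at 16 d, 1 from 8 h to 1 d and 2 from 4 d to 6 d. Trended and robust eBayes gave 2 at 16 d. Array weights gave 5 higher and 5 lower at 2 h, 1 at 2 d, 7 at 4 d, 1 at 8 d, 11 at 16 d, 15 from 8 h to 1 d, and 1 higher and 2 lower from 4 d to 6 d. An adjusted p under 0.01 gave 1 higher and 1 lower at 2 h, 0 at 4 d, 0 at 16 d, 3 higher and 3 lower from 8 h to 1 d, 12 from 2 d to 4 d and 0 from 4 d to 6 d. The replicate block gave 2 at 16 d and moved no other count by over 1.5 times. Of the alternatives chosen after seeing the data, the Gapdh covariate gave 1 higher at 2 h and 0 at 4 d, and leaving out arrays 1 and 2 of 1 d gave 2 at 4 d, 7 at 16 d, 13 from 8 h to 1 d and 2 from 4 d to 6 d.

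Leaving out 1 array at a time gave 1 to 5 higher and 1 to 4 lower at 2 h, 0 to 1 at 2 d, 0 to 2 at 4 d, 0 to 5 at 16 d, 3 to 10 from 8 h to 1 d and 0 to 1 from 4 d to 6 d, and a beta ring median of -0.14 to -0.083 at 8 d. Paralog changes ranged from 0.32 to 0.43 (Psmb8 minus Psmb5 at 2 d), from -0.41 to -0.26, -1.50 to -1.08 and 0.44 to 0.59 (Psmb9 minus Psmb6 at 2 h, 1 d and 4 d), and from -0.54 to -0.28, -0.33 to -0.22 and -0.60 to -0.35 (Psmb10 minus Psmb7 at 2 d, 4 d and 6 d). Over single genes and all alternatives, 5892 values kept their call or stayed uncalled, 104 gained a call and 159 lost it. Another 5 reversed, a change of direction in a value called in the main fit or in the alternative. Values uncalled in both were counted as kept whatever their direction.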
